A study of Homo sapiens with 9 samples.

Results

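The genes described here are the semaphorins, netrins, slits and ephrin-A ligands and their receptors in the GIST-T1 line, cultured tumour cells of human gastrointestinal stromal tumour (GIST). They were chosen by symbol (SEMA3 to SEMA7, plexins, neuropilins, netrins and netrin-Gs, UNC5 and DCC receptors, slits, ROBO receptors, EPHA receptors and EFNA ligands), which took 63 of the 23610 genes in the table, 34 ligands and 29 receptors. Ephrin-B ligands and EPHB receptors were not included. PolyA RNA was sequenced in 9 libraries: 3 carried an sgRNA against HAND1, 3 an sgRNA against ETV1 and 3 a control sgRNA against Luciferase, and the labels call the manipulation a knockdown. HAND1 encodes a helix-loop-helix DNA-binding protein known from heart development, and ETV1 an ETS-family factor that GIST cells share with the gut's pacemaker cells, the interstitial cells of Cajal. The labels give 1 cell line, no clone and no time after sgRNA delivery, and they do not say whether replicates came from different cultures. The p-values therefore reflect spread among these libraries, possibly technical in part.

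Guidance cues were first described as signals that attract or repel growing axons, and they also act on endothelial, mesenchymal and tumour cells. Class 3 semaphorins are secreted and reach plexin receptors through neuropilins, while most other semaphorins are membrane-bound and touch plexins directly. Netrins act through DCC, neogenin and UNC5 receptors, slits through ROBO receptors, and the membrane-anchored ephrin-A ligands through EPHA receptor tyrosine kinases on a neighbouring cell.

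Expression is given in FPKM, fragments scaled to transcript length and library size, so levels of different genes can be set side by side. The HAND1 transcript averaged 38.3 ± 2.25 FPKM in HAND1 sgRNA libraries, 132 ± 2.26 FPKM in ETV1 sgRNA libraries and 114 ± 1.12 FPKM in Luciferase sgRNA libraries (SD, n = 3 each), and the ETV1 transcript averaged 40.8 ± 0.960, 11.4 ± 0.571 and 39.7 ± 2.42 FPKM in the same order of groups. Each target was therefore lowest under its own sgRNA. The libraries held 11283 to 11345 genes at 1 FPKM or more, and their relative depth, read from the smallest FPKM steps, ran from 0.637 to 1. Summed FPKM over all genes was 451286 to 479939 in 8 libraries and 538689 in Luciferase sgRNA replicate 3, which stood apart. The 6 measured markers of GIST and interstitial cells of Cajal (KIT, ANO1, ETV1, PRKCQ, CD34 and PDGFRA) averaged at least 1 FPKM, whereas all 9 endothelial markers and 15 of 17 neuronal and glial markers averaged under 1 FPKM.

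To show the sequence around the start sites of genes whose call between HAND1 sgRNA and control held in all 19 alternative processings tried, the RefSeq windows (GRCh38.p14, 250 bases before to 50 bases after the start, 5′ to 3′ on the gene's strand) are printed for NRP2 at chr2:205682251-205682550 (plus strand), SEMA7A at chr15:74433909-74434208 (minus strand, the first of 2 listed), SLIT2 at chr4:20251655-20251954 (plus strand) and SEMA4F at chr2:74653997-74654296 (plus strand). Capitals mark CANNTG, the E-box that basic helix-loop-helix factors bind, which reads alike on both strands.
NRP2: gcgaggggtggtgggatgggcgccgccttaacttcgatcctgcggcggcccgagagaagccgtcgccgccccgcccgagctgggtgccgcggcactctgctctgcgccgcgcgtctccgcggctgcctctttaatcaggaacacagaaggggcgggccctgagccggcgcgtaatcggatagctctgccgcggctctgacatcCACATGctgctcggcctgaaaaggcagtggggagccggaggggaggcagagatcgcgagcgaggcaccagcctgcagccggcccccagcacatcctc
SEMA7A: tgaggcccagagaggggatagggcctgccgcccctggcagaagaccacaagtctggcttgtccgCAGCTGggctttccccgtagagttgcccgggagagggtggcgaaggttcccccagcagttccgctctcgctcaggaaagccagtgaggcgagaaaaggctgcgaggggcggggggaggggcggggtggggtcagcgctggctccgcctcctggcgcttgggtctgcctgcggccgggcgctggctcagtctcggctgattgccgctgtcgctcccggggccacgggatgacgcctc
SLIT2: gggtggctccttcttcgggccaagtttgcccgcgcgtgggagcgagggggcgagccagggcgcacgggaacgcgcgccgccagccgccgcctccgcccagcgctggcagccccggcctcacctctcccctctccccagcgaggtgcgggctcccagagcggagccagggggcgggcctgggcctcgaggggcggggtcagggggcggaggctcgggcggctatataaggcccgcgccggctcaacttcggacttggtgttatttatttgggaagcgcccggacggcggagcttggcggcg
SEMA4F: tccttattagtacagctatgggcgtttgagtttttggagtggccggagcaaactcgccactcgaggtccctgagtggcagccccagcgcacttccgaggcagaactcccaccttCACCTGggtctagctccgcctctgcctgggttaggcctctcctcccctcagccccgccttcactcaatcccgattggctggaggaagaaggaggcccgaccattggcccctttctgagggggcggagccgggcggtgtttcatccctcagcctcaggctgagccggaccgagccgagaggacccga
NRP2 held 1 match, CACATG. SEMA7A likewise held 1, CAGCTG, as did SEMA4F with CACCTG, and SLIT2 held none in this window. CANNTG was present in 18824 of 27305 windows of all genes (68.9%) and in 31 of the 53 guidance genes that had a window (58.5%). UNC5B kept its call in all 19 as well but had no window listed, so none is printed for it. A match of these letters is a description and not a binding site.

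In control cells the guidance genes spanned the whole range from undetected to abundant. Over the 3 Luciferase sgRNA libraries, 11 genes averaged at least 10 FPKM, 23 averaged 1 to 10 FPKM, 22 averaged above 0 and under 1 FPKM, and 7 were listed at 0. Every family had at least 1 gene above 1 FPKM, led by PLXNB2, a plexin for class 4 semaphorins, at 40.1 ± 3.29 FPKM and by SEMA4C, a membrane-bound class 4 semaphorin, and SEMA3A, a secreted repellent, both above 25 FPKM. Within several receptor families 1 gene carried most of the signal: UNC5B among the netrin receptors and ROBO1 among the ROBO receptors were the single family members that passed the expression filter. DCC, the attractive netrin receptor, had a value above 0 in 1 of 9 libraries (0.00919 FPKM, Luciferase sgRNA replicate 1).

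**Figure D1:**
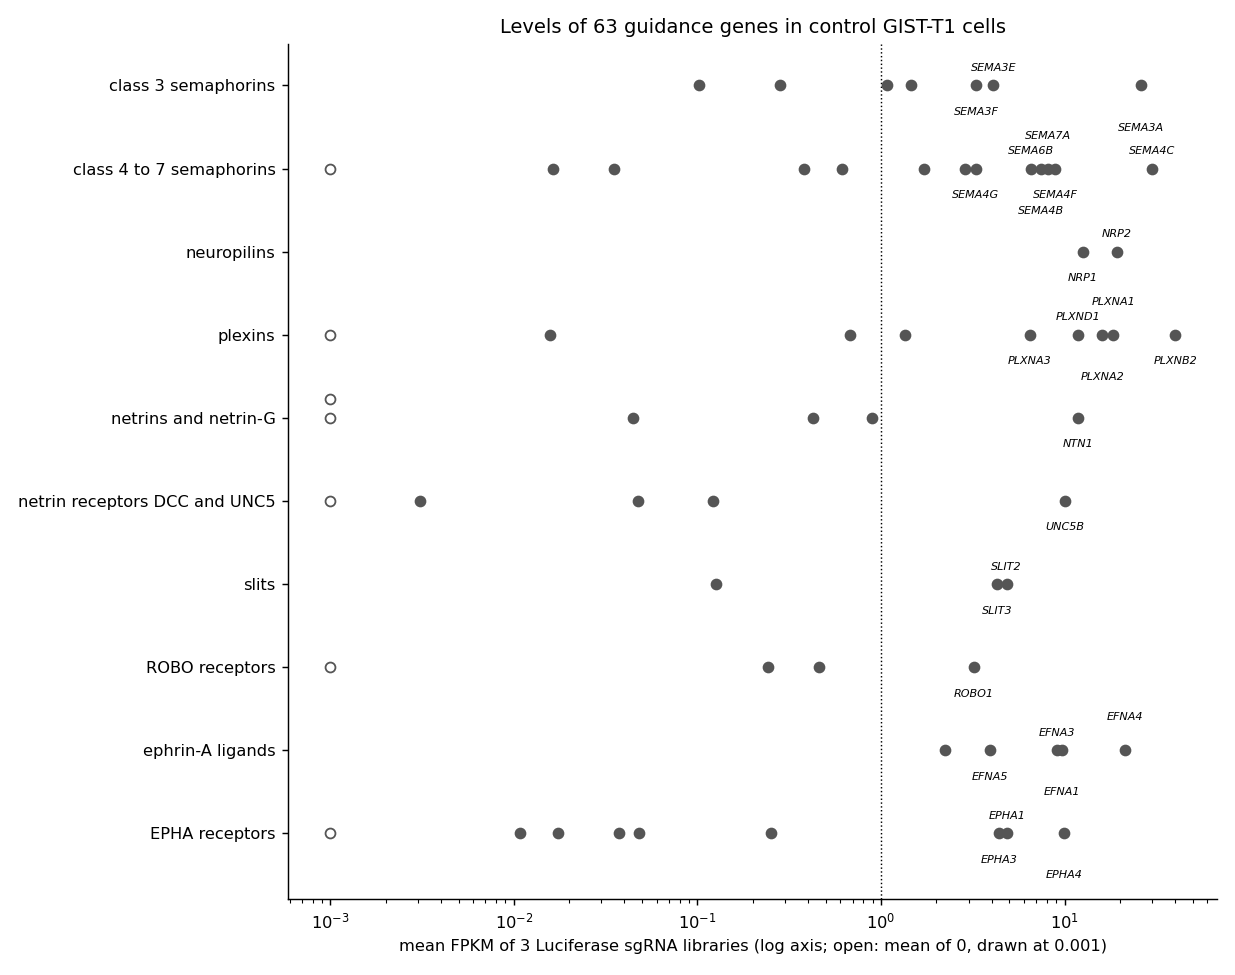
Mean FPKM of each of the 63 guidance genes over the 3 Luciferase sgRNA libraries (log axis), by family, with open points for genes listed at 0 and a dotted line at 1 FPKM. PLXNB2 lies farthest right at 40.1 FPKM, while of the UNC5 and DCC receptors UNC5B alone lies above the line.

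To test the differences, genes averaging 1 FPKM or more over the 9 libraries were compared with limma on log2(FPKM + 1), and a gene was called at a Benjamini-Hochberg adjusted p under 0.05 over all 11348 genes tested. Differences below are on this log2(FPKM + 1) scale, on which low genes appear to move less than they do. Of the 63 guidance genes 34 were tested (21 ligands and 13 receptors), and 29 lay under the filter, 3 of them (EPHA10, SEMA5B and UNC5D) at 0 in every library. In the bulk libraries, fewer cells of a kind and less RNA per cell cannot be told apart.

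In HAND1 sgRNA libraries, against Luciferase sgRNA libraries, the neuropilins NRP1 and NRP2, the netrin receptor UNC5B and the semaphorin SEMA7A fell, while the ligands SLIT2, NTN4 and SEMA4F rose. These were 7 of the 34 tested guidance genes (20.6%), where 749 of 11348 genes were called (6.6%). The 3 higher genes were all ligands (3 of 21 tested), against 3.67% of all genes called higher. Of the 4 lower genes, 3 were receptors (3 of 13 tested), against 2.93% of all genes called lower. The members were picked with earlier results known and 1 of them (NTN4) passed the filter through the HAND1 sgRNA libraries alone. SEMA3D, a ligand with a mean of 0.764 FPKM over all libraries, lay under the filter. With no filter it was called lower in HAND1 sgRNA libraries than in control (-0.63, limma adjusted p = 0.00413). The shares by ligand and receptor thus depend on the filter and are a description. The median difference was -0.03 over the 34 tested guidance genes and -0.01 over all tested genes.

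In ETV1 sgRNA libraries, against the same Luciferase sgRNA libraries, none of the 34 tested guidance genes was called by limma, where 23 of all genes were (0.203%; 0.141% higher and 0.0617% lower). At an unadjusted p under 0.05 there were 4 (SEMA7A, PLXNA2, EPHA4 and EFNA4) among the 34, and 930 among all 11348. The differences ran from -0.35 for SEMA7A to 0.26 for PLXNA2, with a median of 0.03 against -0.01 over all tested genes. Since both sgRNA groups were set against the same 3 control libraries, the direct comparison of HAND1 sgRNA with ETV1 sgRNA libraries tests how they differ. It called 7 of the 34 guidance genes (3 higher, 4 lower), where 460 of all genes were called (4.05%; 2.01% higher and 2.04% lower), and the median difference was 0.03 against -0.00 over all tested genes. NRP2, SEMA7A, UNC5B, SLIT2, NTN4 and SEMA4F were called in both comparisons of HAND1 sgRNA libraries. Those comparisons share the same HAND1 sgRNA libraries, so the calls are not independent, and NTN4 passed the filter through these libraries alone.

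**Figure D2:**
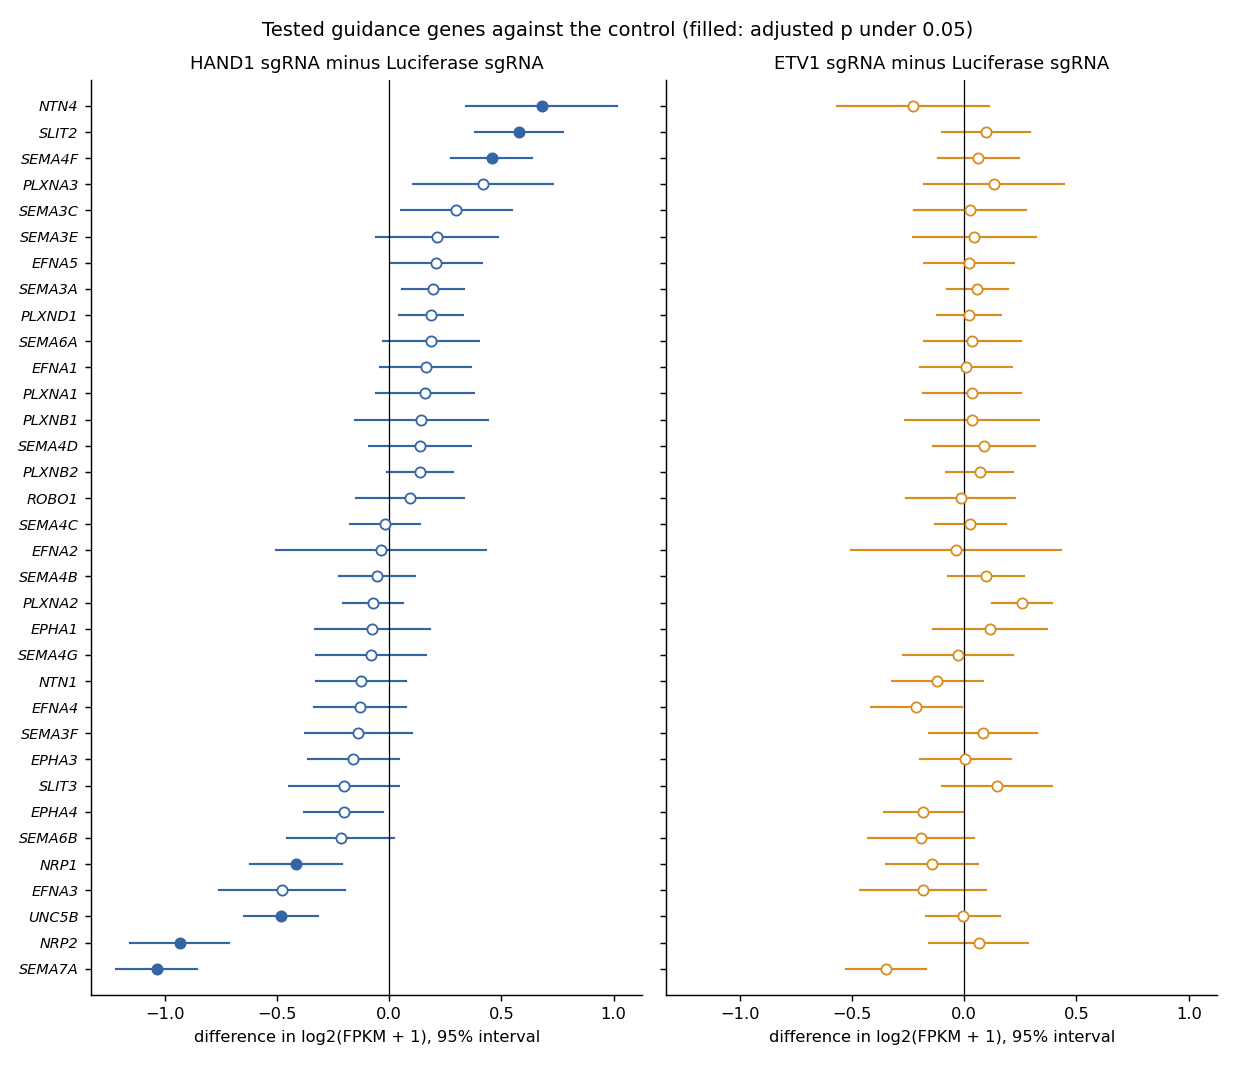
Difference in log2(FPKM + 1) of each of the 34 tested guidance genes with its 95% interval, HAND1 sgRNA minus Luciferase sgRNA on the left and ETV1 sgRNA minus Luciferase sgRNA on the right; filled points have an adjusted p under 0.05. On the left SEMA7A (-1.04) and NRP2 (-0.93) lie lowest and NTN4 (0.68) highest, and on the right no point is filled.

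Among the tested semaphorins, SEMA7A had the largest difference on this log2 scale between HAND1 sgRNA and control libraries. SEMA7A is held in the membrane by a lipid anchor and binds plexin C1 and beta-1 integrins. It had 3.59, 3.09 and 3.64 FPKM in HAND1 sgRNA libraries, 6.15, 6.16 and 6.10 FPKM in ETV1 sgRNA libraries and 7.78, 7.82 and 8.70 FPKM in Luciferase sgRNA libraries. The 3 groups did not overlap: HAND1 sgRNA libraries were lowest, ETV1 sgRNA libraries between, and control libraries highest. The difference of HAND1 sgRNA from control was -1.04 ± 0.081 (SE, limma adjusted p = 4.54e-05), a ratio of means of 0.425, and that from ETV1 sgRNA was -0.69 ± 0.081 (limma adjusted p = 9.33e-04). The ETV1 sgRNA libraries differed from control by -0.35 ± 0.081, which was not called (limma unadjusted p = 0.00146, adjusted p = 0.220). PLXNC1, the plexin that SEMA7A binds, lay under the filter, with 1.01, 1.57 and 0.789 FPKM in HAND1 sgRNA libraries, 0.916, 0.610 and 1.05 FPKM in ETV1 sgRNA libraries and 0.632, 0.664 and 0.740 FPKM in Luciferase sgRNA libraries.

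SEMA4F, a transmembrane class 4 semaphorin, moved the other way. It had 13.6, 11.9 and 12.3 FPKM in HAND1 sgRNA libraries, 9.34, 8.49 and 10.3 FPKM in ETV1 sgRNA libraries and 8.61, 9.16 and 8.99 FPKM in Luciferase sgRNA libraries. Every HAND1 sgRNA library lay above all others, and the ETV1 sgRNA and control libraries overlapped. SEMA4F rose by 0.46 ± 0.081 in HAND1 sgRNA libraries against control (SE, limma adjusted p = 0.00724, ratio of means 1.42). Against ETV1 sgRNA libraries the difference was 0.39 (limma adjusted p = 0.0228), a call that was lost without HAND1 sgRNA replicate 1 (0.0988) or 3 (0.0687), or without ETV1 sgRNA replicate 1 (0.0768) or 2 (0.0853).

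The most abundant semaphorins stayed under the threshold. SEMA3A, which binds NRP1, had 29.8, 31.1 and 29.5 FPKM in HAND1 sgRNA libraries, 28.1, 28.6 and 25.3 FPKM in ETV1 sgRNA libraries and 27.5, 25.9 and 25.1 FPKM in Luciferase sgRNA libraries. The HAND1 sgRNA libraries all lay above the other groups, by 0.20 against control with a 95% interval of 0.06 to 0.33 (limma adjusted p = 0.0958). SEMA4C had 29.7, 29.96 and 29.2 FPKM in HAND1 sgRNA libraries, 29.6, 31.8 and 30.4 FPKM in ETV1 sgRNA libraries and 28.0, 28.6 and 33.8 FPKM in Luciferase sgRNA libraries. Its groups overlapped, with a difference of -0.02 between HAND1 sgRNA and control and a 95% interval of -0.18 to 0.14. SEMA3E, the ligand of plexin D1, and SEMA3F, which prefers NRP2, averaged 4.91 ± 0.854 and 2.90 ± 0.140 FPKM in HAND1 sgRNA libraries, against 4.09 ± 0.617 and 3.31 ± 0.544 FPKM in Luciferase sgRNA libraries, neither called. SEMA3D, a secreted semaphorin, lay just under the filter with a mean of 0.764 FPKM over the 9 libraries. It had 0.288, 0.400 and 0.340 FPKM in HAND1 sgRNA libraries, 0.910, 0.960 and 0.736 FPKM in ETV1 sgRNA libraries and 1.18, 1.17 and 0.896 FPKM in Luciferase sgRNA libraries. The HAND1 sgRNA libraries were lowest and apart from both other groups, with a ratio of means of 0.317 to control, below that of SEMA7A. With no filter the difference from control was -0.63 (limma adjusted p = 0.00413).

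The neuropilins are the co-receptors that hand class 3 semaphorins to plexins and that also bind VEGF. NRP2 had 9.16, 9.02 and 10.6 FPKM in HAND1 sgRNA libraries, 21.7, 20.5 and 18.2 FPKM in ETV1 sgRNA libraries and 21.4, 19.6 and 16.8 FPKM in Luciferase sgRNA libraries. The HAND1 sgRNA libraries lay well below both other groups, which overlapped each other. NRP2 fell by 0.93 ± 0.0995 in HAND1 sgRNA libraries against control (SE, limma adjusted p = 3.46e-04), to a ratio of means of 0.498. Against ETV1 sgRNA libraries the difference was -0.997 (limma adjusted p = 3.09e-04, ratio of means 0.476), while ETV1 sgRNA and control libraries differed by 0.06 with a 95% interval of -0.16 to 0.28 (limma adjusted p = 0.925).

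NRP1 had 9.30, 9.23 and 9.01 FPKM in HAND1 sgRNA libraries, 10.6, 13.4 and 10.2 FPKM in ETV1 sgRNA libraries and 12.1, 13.2 and 12.5 FPKM in Luciferase sgRNA libraries. All HAND1 sgRNA libraries lay below the other 6, and 1 ETV1 sgRNA library lay above every control. NRP1 fell by 0.42 ± 0.092 in HAND1 sgRNA libraries against control (SE, limma adjusted p = 0.0229, ratio of means 0.729). Leaving out HAND1 sgRNA replicate 1, 2 or 3 ended this call (adjusted p = 0.0662, 0.0701 and 0.0824), as did leaving out Luciferase sgRNA replicate 2 (0.0852). HAND1 sgRNA and ETV1 sgRNA libraries differed by -0.27 in NRP1, which was not called (limma adjusted p = 0.161). Both neuropilins share exon bases with a non-coding gene on the other strand (AC007362.1 for NRP2, AL121748.2 for NRP1), which non-stranded libraries cannot separate.

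Plexins are the receptors that carry the semaphorin signal into the cell, and none was called between HAND1 sgRNA and control libraries. PLXNB2 had 42.93, 43.4 and 45.9 FPKM in HAND1 sgRNA libraries, 43.1, 43.1 and 39.8 FPKM in ETV1 sgRNA libraries and 42.92, 40.8 and 36.5 FPKM in Luciferase sgRNA libraries, a difference of 0.14 between HAND1 sgRNA and control (limma adjusted p = 0.289). PLXNA3, a class A plexin, had 8.98, 9.65 and 8.09 FPKM in HAND1 sgRNA libraries, 8.36, 7.23 and 5.94 FPKM in ETV1 sgRNA libraries and 6.73, 7.58 and 5.13 FPKM in Luciferase sgRNA libraries. For PLXNB2 the groups touched, the lowest HAND1 sgRNA library lying just above the highest control, and for PLXNA3 all HAND1 sgRNA libraries lay above control. However, PLXNA3 shares exon bases with LAGE3 on the other strand and its difference of 0.42 was not called (limma adjusted p = 0.117).

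PLXNA2, which pairs with neuropilins and also binds class 6 semaphorins, was the single plexin called in any comparison. It had 15.5, 14.9 and 15.1 FPKM in HAND1 sgRNA libraries, 18.7, 20.4 and 19.0 FPKM in ETV1 sgRNA libraries and 16.02, 16.8 and 15.3 FPKM in Luciferase sgRNA libraries. Here the ETV1 sgRNA libraries stood above both other groups, which overlapped. The difference of HAND1 sgRNA from ETV1 sgRNA was -0.33 (limma adjusted p = 0.0118), lost without ETV1 sgRNA replicate 2 (0.0549) or HAND1 sgRNA replicate 2 (0.0540) or 3 (0.0522). Against control, PLXNA2 in ETV1 sgRNA libraries differed by 0.26 ± 0.060, not called after adjustment (limma adjusted p = 0.221).

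Summed over the 2 genes, neuropilin expression was 18.3 to 19.6 FPKM in HAND1 sgRNA libraries, 28.4 to 33.9 FPKM in ETV1 sgRNA libraries and 29.3 to 33.5 FPKM in Luciferase sgRNA libraries. Summed plexin expression was 103 to 107, 95.6 to 105 and 86.7 to 99.1 FPKM in the same order of groups, and summed class 3 semaphorin expression 39.5 to 41.5, 36.2 to 38.7 and 33.8 to 38.3 FPKM. In HAND1 sgRNA libraries the neuropilin sum lay below every control library, and the plexin and class 3 semaphorin sums lay above every control library. However, the plexin sums of HAND1 sgRNA and ETV1 sgRNA libraries overlapped. No tested plexin or class 3 semaphorin was called between HAND1 sgRNA and control. In HAND1 sgRNA libraries SEMA3A alone averaged 30.1 FPKM of a class 3 sum averaging 40.8 FPKM, and PLXNB2 44.1 FPKM of a plexin sum averaging 105 FPKM. The ratio of NRP2 to NRP1, picked after its values were seen, was 0.984, 0.977 and 1.17 in HAND1 sgRNA libraries, 2.05, 1.54 and 1.78 in ETV1 sgRNA libraries and 1.76, 1.49 and 1.34 in Luciferase sgRNA libraries. HAND1 sgRNA libraries had near-equal levels of both neuropilins, and every other library had more NRP2. Over all 63 guidance genes the sum was 326.8 to 336.1 FPKM in HAND1 sgRNA libraries, 328.4 to 346.0 FPKM in ETV1 sgRNA libraries and 328.6 to 340.0 FPKM in Luciferase sgRNA libraries, which overlapped.

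**Figure D3:**
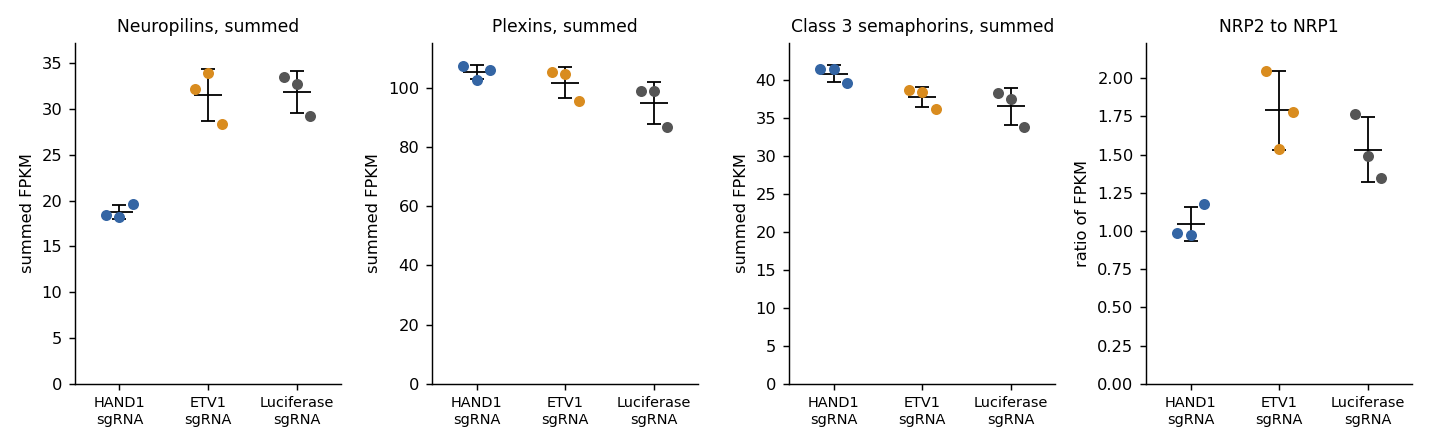
FPKM summed over the neuropilins, the plexins and the class 3 semaphorins, and the ratio of NRP2 to NRP1, in each library, with mean and SD of 3 libraries per group. Neuropilins sum to 18.3 to 19.6 FPKM in HAND1 sgRNA libraries and to at least 28.4 FPKM in the others. The plexin and class 3 semaphorin sums of HAND1 sgRNA libraries lie above those of all control libraries. Plexin sums of HAND1 sgRNA and ETV1 sgRNA libraries overlap.

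Among the tested netrins and netrin receptors, NTN4 was called higher and UNC5B lower in HAND1 sgRNA libraries against control. NTN1 was not called. NTN4, a secreted netrin of basement membranes, had 1.67, 1.98 and 2.48 FPKM in HAND1 sgRNA libraries, 0.533, 0.473 and 0.855 FPKM in ETV1 sgRNA libraries and 1.09, 0.907 and 0.684 FPKM in Luciferase sgRNA libraries. HAND1 sgRNA libraries were above both other groups, which overlapped, and NTN4 passed the filter only through them (mean of 1.19 FPKM over all 9 libraries). NTN4 rose by 0.68 ± 0.15 in HAND1 sgRNA libraries against control (SE, limma adjusted p = 0.0241, ratio of means 2.28). Leaving out HAND1 sgRNA replicate 2 (adjusted p = 0.0729) or 3 (0.103) ended that call, and so did omission of Luciferase sgRNA replicate 2 (0.0698) or 3 (0.0698). Against ETV1 sgRNA libraries NTN4 was higher by 0.91 (limma adjusted p = 0.00749, ratio of means 3.29).

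UNC5B, a receptor that mediates repulsion from netrin and can trigger apoptosis when no netrin is bound, had 7.44, 6.40 and 6.81 FPKM in HAND1 sgRNA libraries, 9.69, 10.2 and 10 FPKM in ETV1 sgRNA libraries and 10.7, 9.59 and 9.68 FPKM in Luciferase sgRNA libraries. The HAND1 sgRNA libraries lay below the other 6, which overlapped. UNC5B fell by 0.48 ± 0.074 in HAND1 sgRNA libraries against control (SE, limma adjusted p = 0.00347, ratio of means 0.688), and differed by -0.48 from ETV1 sgRNA libraries (limma adjusted p = 0.00523). NTN1, the best-known netrin and the most abundant here, had 11.01, 9.58 and 11.6 FPKM in HAND1 sgRNA libraries, 11.7, 9.61 and 11.1 FPKM in ETV1 sgRNA libraries and 11.1, 11.9 and 12.4 FPKM in Luciferase sgRNA libraries. Its groups overlapped, and HAND1 sgRNA differed from control by -0.13 with a 95% interval of -0.33 to 0.08.

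Of the slits, SLIT2, a secreted ROBO ligand, rose in HAND1 sgRNA libraries. It had 8.30, 7.38 and 7.43 FPKM in HAND1 sgRNA libraries, 4.95, 5.59 and 5.17 FPKM in ETV1 sgRNA libraries and 5.12, 5.12 and 4.27 FPKM in Luciferase sgRNA libraries. The HAND1 sgRNA libraries lay above all others, and the other 2 groups overlapped. The difference from control was 0.58 ± 0.089 (SE, limma adjusted p = 0.00347, ratio of means 1.59). SLIT2 was higher by 0.48 than in ETV1 sgRNA libraries (limma adjusted p = 0.0128), a call lost without ETV1 sgRNA replicate 1 (0.0572) or HAND1 sgRNA replicate 1 (0.0651). SLIT3, the other tested slit, averaged 3.61 ± 0.285 FPKM in HAND1 sgRNA libraries, 4.88 ± 0.692 FPKM in ETV1 sgRNA libraries and 4.31 ± 0.478 FPKM in Luciferase sgRNA libraries, uncalled in every comparison. ROBO1, the main ROBO receptor in these cells, had 4.14, 3.43 and 2.98 FPKM in HAND1 sgRNA libraries, 3.18, 2.98 and 3.35 FPKM in ETV1 sgRNA libraries and 3.36, 3.32 and 2.97 FPKM in Luciferase sgRNA libraries. The groups overlapped, and HAND1 sgRNA differed from control by 0.09 with a 95% interval of -0.15 to 0.34.

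**Figure D4:**
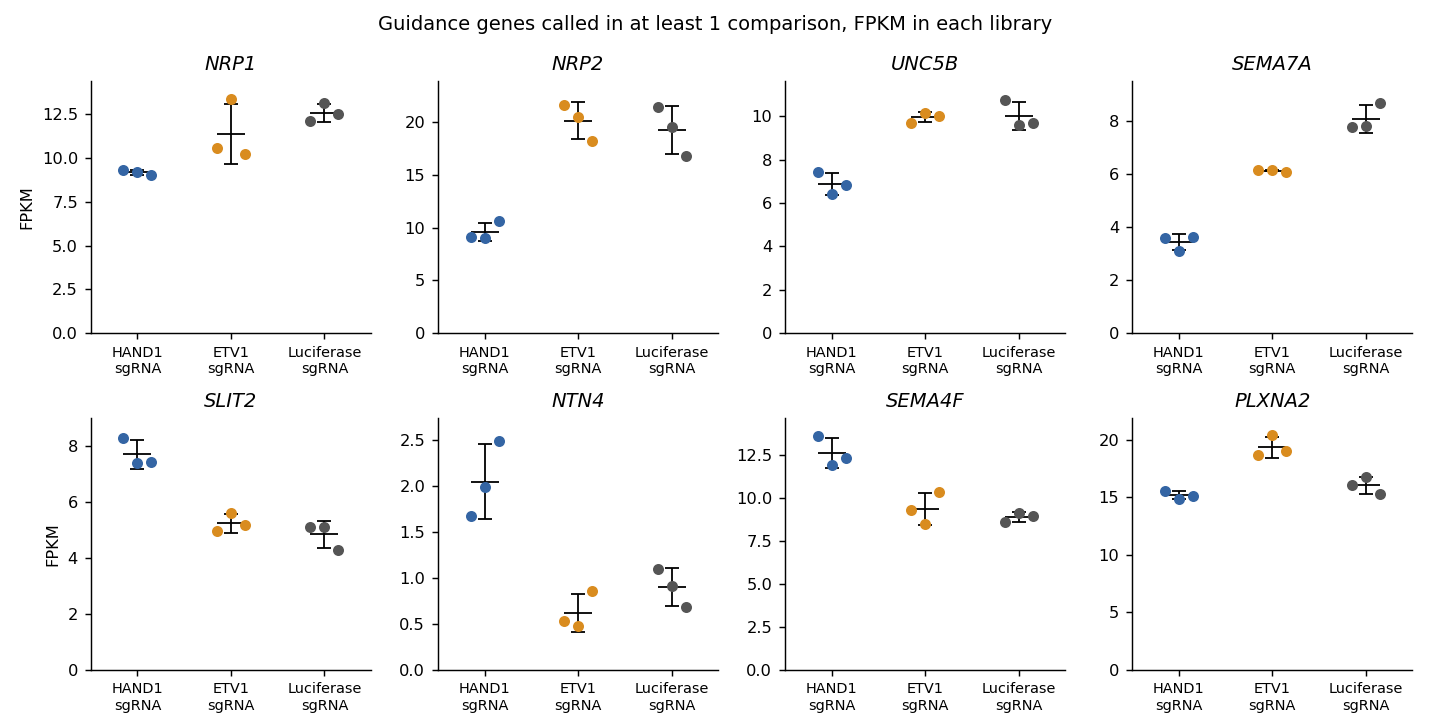
FPKM in each library of the 8 guidance genes called in at least 1 comparison, with mean and SD of 3 libraries per group (axes start at 0). For NRP1, NRP2, UNC5B and SEMA7A the HAND1 sgRNA libraries lie below both other groups, for SLIT2, NTN4 and SEMA4F above them, and for PLXNA2 the ETV1 sgRNA libraries lie highest.

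No ephrin-A ligand or EPHA receptor was called in any comparison, among 5 ligands and 3 receptors tested, beside 6.6%, 4.05% and 0.203% of all genes called between HAND1 sgRNA and control, HAND1 sgRNA and ETV1 sgRNA, and ETV1 sgRNA and control. EFNA3 came closest, with 5.21, 7.27 and 6.39 FPKM in HAND1 sgRNA libraries, 8.90, 6.95 and 7.90 FPKM in ETV1 sgRNA libraries and 9.40, 7.89 and 10.1 FPKM in Luciferase sgRNA libraries. HAND1 sgRNA libraries lay below control without overlap, with a difference of -0.48 and a 95% interval of -0.76 to -0.20 (limma adjusted p = 0.0530). EFNA4, the most abundant ephrin-A, had 17.8, 21.4 and 19.3 FPKM in HAND1 sgRNA libraries, 19.6, 16.6 and 18.9 FPKM in ETV1 sgRNA libraries and 19.1, 22.3 and 23.0 FPKM in Luciferase sgRNA libraries, which overlapped. EFNA3 and EFNA4 share exon bases with the same-strand transcript AL691442.1, so their values are uncertain. EPHA4, the most abundant EPHA receptor, had 8.40, 8.68 and 8.36 FPKM in HAND1 sgRNA libraries, 9.41, 7.99 and 8.46 FPKM in ETV1 sgRNA libraries and 10.6, 10.1 and 9.09 FPKM in Luciferase sgRNA libraries. HAND1 sgRNA libraries lay below control, with a difference of -0.20 and a 95% interval of -0.38 to -0.03 (limma adjusted p = 0.174).

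Among tested guidance genes, the libraries of HAND1 sgRNA and control did not overlap for 16 of 34 (10 above, 6 below), against 25.7% of all tested genes (13% above, 12.7% below), and 9 of these 16 were not called. Between ETV1 sgRNA and control 2 of 34 did not overlap, PLXNA2 above and SEMA7A below, against 12.9% of all tested genes (6.88% above, 6% below). Between HAND1 sgRNA and ETV1 sgRNA 17 did not overlap (8 above, 9 below), against 22.4% (10.9% above, 11.5% below). The genes were picked with earlier results known, so these shares are a description. NTN4, above in both comparisons of HAND1 sgRNA, passed the filter through the HAND1 sgRNA libraries alone. The uncalled guidance genes differed by -0.48 to 0.42 between HAND1 sgRNA and control and by -0.35 to 0.28 between HAND1 sgRNA and ETV1 sgRNA. The 29 genes under the filter had means of 0 to 0.887 FPKM over the 9 libraries. They were DCC, UNC5A, UNC5C and UNC5D; EPHA2, EPHA5, EPHA6, EPHA7, EPHA8 and EPHA10; NTN3, NTN5, NTNG1 and NTNG2; PLXNA4, PLXNB3 and PLXNC1; ROBO2, ROBO3 and ROBO4; SLIT1; and SEMA3B, SEMA3D, SEMA3G, SEMA4A, SEMA5A, SEMA5B, SEMA6C and SEMA6D.

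A list of 71 other genes of guidance signalling, 70 of them in the table and 52 tested, held 3 genes called higher and 2 called lower in HAND1 sgRNA libraries against control. That is 9.62%, near the 6.6% called among all tested genes, and the median difference was -0.03 against -0.01 over all genes. SDC1 and GPC1 carry heparan sulphate, which slits bind. SDC1 had 45.5, 44.3 and 48.9 FPKM in HAND1 sgRNA libraries, 31.5, 29.7 and 30.3 FPKM in ETV1 sgRNA libraries and 28.4, 28.8 and 32.4 FPKM in Luciferase sgRNA libraries. GPC1 had 12.9, 14.0 and 14.8 FPKM in HAND1 sgRNA libraries, 10.9, 9.34 and 10.9 FPKM in ETV1 sgRNA libraries and 10.3, 8.88 and 10.6 FPKM in Luciferase sgRNA libraries. Both lay above the other groups in every HAND1 sgRNA library, rising by 0.61 and 0.45 against control (limma adjusted p = 3.25e-04 and 0.0121). The GPC1 call was lost without HAND1 sgRNA replicate 3 (0.0595).

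TIAM1, a guanine nucleotide exchange factor that binds Eph receptors, fell to 15.8, 15.1 and 17.2 FPKM in HAND1 sgRNA libraries, against 19.5, 20.2 and 18.7 FPKM in ETV1 sgRNA libraries and 20.5, 19.5 and 19.3 FPKM in Luciferase sgRNA libraries. Every HAND1 sgRNA library lay below the other 6, which overlapped. The difference of TIAM1 from control was -0.29 (limma adjusted p = 0.0227), lost without HAND1 sgRNA replicate 1 (0.0774) or 2 (0.0861) or Luciferase sgRNA replicate 1 (0.0735) or 2 (0.0654).

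Of the list's abundant genes without a call, VASP, CD9 and CRK averaged 105 ± 1.5005, 84.5 ± 3.03 and 67.7 ± 0.974 FPKM in HAND1 sgRNA libraries, against 92.6 ± 6.90, 82.4 ± 7.56 and 66.7 ± 0.859 FPKM in Luciferase sgRNA libraries (SD, n = 3 each). They act in actin assembly (VASP), membrane organisation (CD9) and adaptor signalling (CRK). In ETV1 sgRNA libraries none of the 52 was called against control by limma, and 5 had an unadjusted p under 0.05, where 23 of all 11348 genes were called and 930 had such a p. Between HAND1 sgRNA and ETV1 sgRNA libraries 4 of the 52 were called (7.69%, 3 higher and 1 lower, where 4.05% of all tested genes were called), among them SDC1, GPC1 and TIAM1 with differences of 0.58, 0.39 and -0.27 (limma adjusted p = 5.94e-04, 0.0344 and 0.0461). The SDC1 call held in all 19 alternative settings. GPC1 and TIAM1 lost theirs in 7 and 12 of the 19, with adjusted p of up to 0.139 and 0.154, and both lost it without any 1 of HAND1 sgRNA replicates 1 and 2 and ETV1 sgRNA replicates 1, 2 and 3. GPC1 also lost it without HAND1 sgRNA replicate 3, and TIAM1 without Luciferase sgRNA replicate 1 or 2.

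Some markers of the line's own cell type differed along with the guidance genes. KIT, the stem cell factor receptor and main GIST oncogene, averaged 159.9 ± 4.51 FPKM in HAND1 sgRNA libraries, 207.3 ± 9.22 FPKM in ETV1 sgRNA libraries and 209.1 ± 11.3 FPKM in Luciferase sgRNA libraries (SD, n = 3 each), a difference of -0.38 between HAND1 sgRNA and control (limma adjusted p = 0.00336). PRKCQ, a protein kinase C used as a GIST marker, averaged 3.67 ± 0.149, 7.12 ± 0.576 and 6.84 ± 0.232 FPKM in the same order of groups, a difference of -0.75 between HAND1 sgRNA and control (limma adjusted p = 3.26e-04). PDGFRA, a related receptor kinase, averaged 16.2 ± 0.343, 20.5 ± 0.920 and 15.5 ± 0.857 FPKM, a difference of 0.38 between ETV1 sgRNA and control (limma adjusted p = 0.0436). ANO1 and CD34 were called in none of the 3 comparisons. These marker differences were not recomputed under the alternatives, and their part in the guidance results was not tested.

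Markers of other cell types that express guidance genes were low in all groups. Endothelial markers summed to 0.609 to 0.783 FPKM in HAND1 sgRNA libraries, 0.259 to 0.589 FPKM in ETV1 sgRNA libraries and 0.180 to 0.661 FPKM in Luciferase sgRNA libraries (9 of 9 measured, none listed at 0 throughout). Neuronal and glial markers summed to 15.1 to 17.8, 10.99 to 12.7 and 10.8 to 11.4 FPKM in the same order of groups, with SNAP25, ELAVL3, ELAVL4 and STMN2 at 0 in every library. That difference lay in ERBB3, a neuregulin receptor, which averaged 12.6 ± 0.920 FPKM in HAND1 sgRNA libraries, 7.79 ± 0.912 FPKM in ETV1 sgRNA libraries and 7.74 ± 0.336 FPKM in Luciferase sgRNA libraries (SD, n = 3 each), higher by 0.64 in HAND1 sgRNA libraries than in control (limma adjusted p = 0.00198); its part in the guidance results was not tested. Without ERBB3 the sums were 2.80 to 4.14, 3.21 to 4.21 and 3.12 to 3.51 FPKM. Epithelial markers summed to 1.43 to 1.94, 1.34 to 2.79 and 1.42 to 1.82 FPKM, with KRT20 at 0 in every library. In Luciferase sgRNA replicate 3, the library with the highest summed FPKM, the tested guidance genes had a median difference of -0.09 from the other control libraries, where the other 8 libraries had -0.03 to 0.04. Over all tested genes the median difference of Luciferase sgRNA replicate 3 was 0.01. Without this library 6 of the 7 guidance genes kept their call between HAND1 sgRNA and control (NTN4 did not).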

How the data were processed

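PolyA RNA was isolated with RNeasy Plus, made into libraries with the non-stranded NEBNext Ultra II kit and sequenced on a NovaSeq6000, per the labels' protocols. STAR, Cufflinks and hg19 are named per the submitters' processing notes; versions, annotation and library scaling are not given in those sources. The authors deposited 1 FPKM value per gene and library (23610 genes; 6473 at 0 throughout, values below 1e-06 read as 0; 28 spreadsheet dates in place of a symbol). FPKM are not counts, so no count model or counting interval was used. Depth in reads is unknown; relative depth was read from steps among values of 0.001 to 0.1 FPKM. Genes that share exon bases with another gene were found by name in GENCODE v29, and no coordinates were taken from it. Besides those named above, SLIT3, EPHA4, SEMA3F, EPHA1, SEMA4G and SEMA6A share exon bases with a gene on the other strand. Non-stranded libraries cannot separate these.

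limma 3.58.1 (R 4.3.3) was fitted to log2(FPKM + 1) for all 9 libraries with group as the only term and an intensity trend (6 residual and 4.15 prior degrees of freedom), for 11348 genes averaging 1 FPKM or more; tests were two-sided with Benjamini-Hochberg adjustment. The fit was tested on simulated data, drawn as independent normal values, which checks the code and not the calls reported here. Pairs of libraries of a group differed. Genes with values in every library are the 6 markers, called genes and the most abundant of each family; some called genes of the pathway list are not reported here. The genes, lists and rules were chosen with earlier results of these data known. Alternatives changed the pseudocount (0.1, 5), filter (none, 5 FPKM), scaling, trend, library weights, groups fitted (2), replicate block, or left out each library.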

Additional observations from a re-analysis of the deposited data

How the results depend on the processing

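The 14 calls of guidance genes were recomputed under up to 19 alternatives each, 264 values in all. Of these 246 kept the call, 18 lost it (17 with a library left out, 1 with the replicate block) and 0 turned direction. NRP2, SEMA7A and UNC5B kept their calls in both comparisons of HAND1 sgRNA, and SLIT2 and SEMA4F kept theirs against control, in all 19. The number called between HAND1 sgRNA and control was 5 to 7 with a library left out and 6 to 8 under other settings, and likewise between HAND1 sgRNA and ETV1 sgRNA; between ETV1 sgRNA and control it was 0 throughout. Some genes were called only under an alternative against control: SEMA3D with no filter, EFNA3 with median centring (adjusted p = 0.0485), quantile normalization (0.0408) or without HAND1 sgRNA replicate 2 (0.0461) or Luciferase sgRNA replicate 2 (0.0484), SEMA3A with library weights (0.0420) and PLXNA3 with the replicate block (0.0395).

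The labels do not say that replicate numbers mark a shared culture or day, so the numbers were not taken as pairs. Deviations from the group mean correlated at -0.146 to 0.138 between same-numbered libraries and at -0.126 to 0.196 between differently numbered ones. With the replicate block 7 guidance genes were called between HAND1 sgRNA and control, 7 between HAND1 sgRNA and ETV1 sgRNA and 0 between ETV1 sgRNA and control; NTN4 lost its call against control (adjusted p = 0.0508) and PLXNA3 gained one. Of the pathway list, TIAM1 lost its call against control (adjusted p = 0.0532), as it did with 2 groups fitted (0.0523). NTN4 was not tested at a mean of 5 FPKM.

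Over all genes, 749 calls between HAND1 sgRNA and control became 1312 with library weights, 433 to 489 with any HAND1 sgRNA library left out, and 488 when Luciferase sgRNA replicate 2 was left out. The 460 calls between HAND1 sgRNA and ETV1 sgRNA became 271 to 295 without a HAND1 sgRNA library or without ETV1 sgRNA replicate 1 or 2. The 23 calls between ETV1 sgRNA and control became 45 with library weights, 14 with 2 groups fitted and 11 to 15 without ETV1 sgRNA replicate 1 or 3, HAND1 sgRNA replicate 1 or 2, or Luciferase sgRNA replicate 1 or 2. With 3 libraries a group and no read counts, differences of guidance genes had a median SE of 0.0943 on the log2 scale, and an uncalled gene is not shown to be equal.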
